A study of Macaca mulatta with 13 samples.

Results

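RAB proteins are the largest family of Ras-related small GTPases, and their transcripts were followed here in the blood mononuclear cells of infant rhesus macaques. The members were all genes whose symbol is RAB, a number and at most 1 letter, on probe sets that the platform annotation pairs with 1 symbol. They came to 39 genes on 81 probe sets, of 14132 named genes on the array. Each gene is represented by its brightest probe set, the one with the highest mean over the 13 arrays. A probe set was tested where that mean lay above the median of all means, 6.04 on the log2 scale, which kept 28 RAB genes and 57 RAB probe sets.

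The study asked whether early rearing changes leukocyte gene expression. Peripheral blood mononuclear cells (PBMC) were taken at 4 months of age from 4 surrogate-peer reared, 4 peer reared and 5 maternally reared animals, with 1 Affymetrix array each. The 8 surrogate-peer and peer animals are together called non-maternal. The labels name no sex, litter, treatment or batch, and the p-values measure the spread between these 13 animals. All 12 monocyte, 8 T cell, 9 B cell and 13 NK cell marker genes on the array lay above the cutoff. This matches the PBMC label, but 8 of 8 platelet genes lay above it too. So did 2 of 4 erythroid and 3 of 5 neutrophil genes, with HBB (11.5) and CAMP (12.2) the highest of their lists. The log2 ratio of 3' to 5' control signal, a measure of RNA integrity, ran from 1.33 to 1.46 on surrogate-peer, from 1.40 to 1.74 on peer and from 1.55 to 2.23 on maternal arrays. The median log2 value of an array ran from 5.995 to 6.044 on non-maternal and from 6.048 to 6.061 on maternal arrays. The SD of its values ran from 2.12 to 2.15 and from 2.09 to 2.11 in the same order. Neither measure overlapped between these groups, and its part in the differences below was not tested.

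A RAB protein is a switch: bound to GTP it sits on a particular membrane and recruits effectors that form, move, tether or fuse vesicles, and bound to GDP it returns to the cytosol. Exchange factors (GEFs) load GTP, GTPase-activating proteins (GAPs) drive its hydrolysis, a geranylgeranyl transferase with the escort proteins CHM and CHML attaches the lipid anchor, and GDI proteins carry the GDP form through the cytosol. In leukocytes RAB proteins serve phagocytosis, antigen presentation, receptor recycling and the release of cytotoxic granules.

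Few RAB transcripts passed the test for a difference between rearing groups. In non-maternal minus maternal animals 1 of 28 RAB genes passed the threshold (limma, Benjamini-Hochberg adjusted p below 0.05 over all 26352 tested probe sets), which is 3.57%, against 7.98% of the 9657 named genes at their brightest probe sets. Of all 57 RAB probe sets 4 passed, 7.02%, against 8.0% of all tested probe sets. Of the 28 genes 14 had positive and 14 negative log2 fold changes, with a median of 0.0005, beside 0.005 for all named genes. An unadjusted p under 0.05 was reached by 4 of the 28 RAB genes, beside 29.7% of named genes, and 0 of 28 had groups that did not overlap, beside 2.64% of named genes. For 19 of the 28 genes the difference was under 0.2 in size, and its standard error ran from 0.06 to 0.33 with a median of 0.12.

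**Figure D1:**
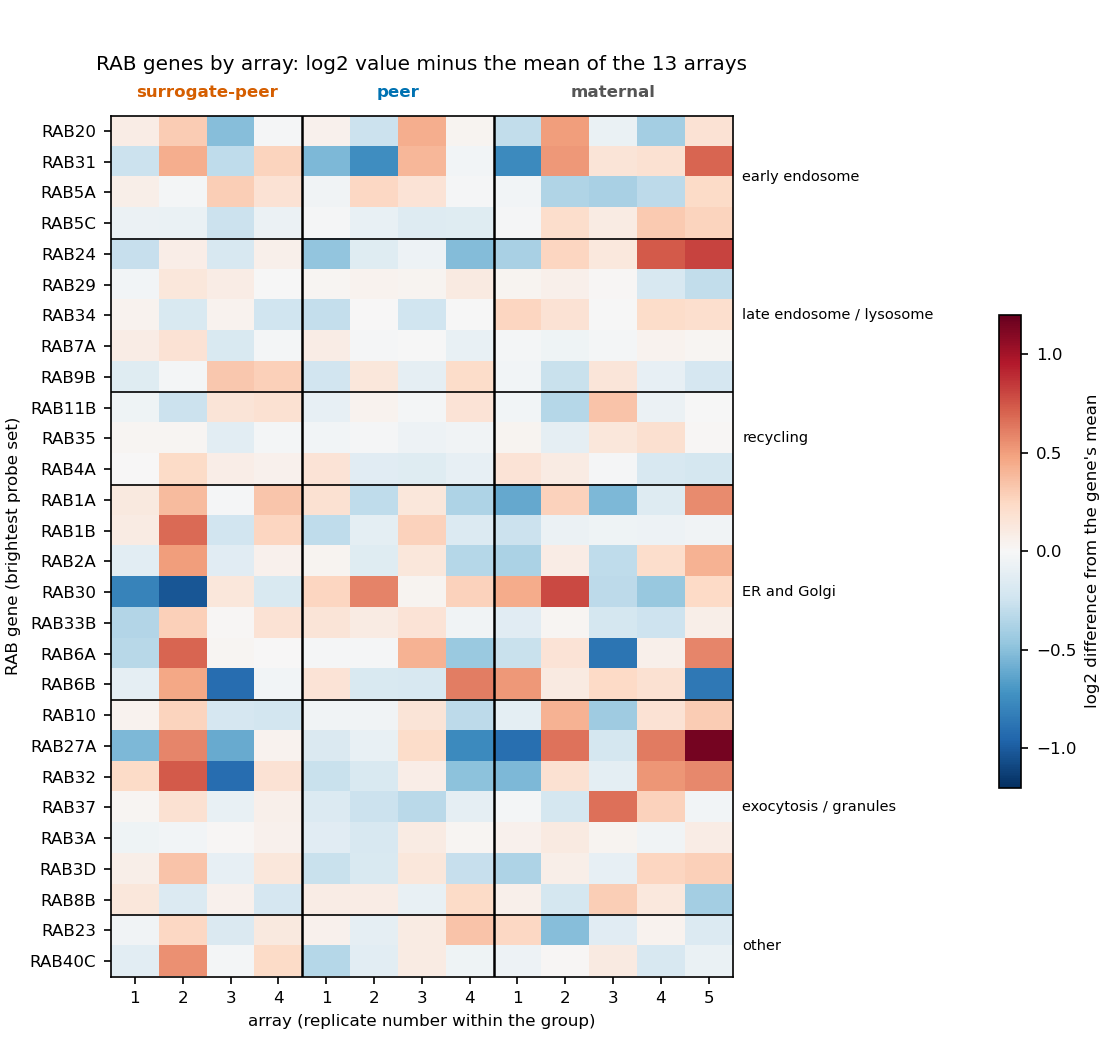
Each row is 1 of the 28 tested RAB genes at its brightest probe set, grouped by the site where the protein acts; each column is 1 array, with surrogate-peer, peer and maternal animals from left to right. Colour gives the log2 value minus the gene's mean over the 13 arrays; RAB27A, RAB31, RAB32 and RAB6A share high values on surrogate-peer array 2 and maternal array 5, and few rows change colour at the borders between groups.

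The early endosome group held the gene that passed. RAB5C, one of the RAB5 proteins that drive fusion of early endosomes, had log2 values of 10.02, 10.02, 9.84 and 10.03 on the surrogate-peer arrays, 10.09, 10.01, 9.94 and 9.95 on the peer arrays, and 10.08, 10.31, 10.20, 10.41 and 10.36 on the maternal arrays. Maternal array 1 lay among the non-maternal values and the other 4 maternal arrays above all of them. RAB5C fell by 0.29 ± 0.07 (SE) in non-maternal animals on the log2 scale (limma, adjusted p = 0.0344), as 1.69% of all named genes fell past the threshold. The fall was 0.28 ± 0.08 in peer (adjusted p = 0.0834) and 0.30 ± 0.08 in surrogate-peer animals (adjusted p = 0.106), where it did not pass.

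The call on RAB5C was fragile. Without surrogate-peer 3, any of the 4 peer animals or maternal 2, 4 or 5 the adjusted p ran from 0.0585 to 0.0958. Over all alternatives it ran from 0.00783 to 0.422, with a negative difference in each. The smallest difference in size, -0.08, came from the mean of the 3 RAB5C probe sets. RAB5C also has probe sets that disagree: MmugDNA.37117.1.S1_at gave -0.26 ± 0.16 and MmunewRS.990.1.S1_at gave 0.31 ± 0.13, neither past the threshold. The values of these 3 probe sets correlated between -0.73 and 0.63 over the 13 arrays.

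The T cell marker score, the mean over 8 genes of the log2 value minus the gene's mean, ran opposite to RAB5C at its brightest probe set. Pearson r was -0.85 over the 13 arrays and -0.39 over the 8 non-maternal arrays. The score ran from -0.05 to 0.40 on non-maternal and from -0.63 to -0.004 on maternal arrays. In non-maternal animals 8 of 8 genes were higher, 1 of them, BCL11B, past the threshold. With the T cell score as a covariate, chosen after seeing the data, the RAB5C difference was -0.15 (limma, adjusted p = 0.420). With the 3' to 5' ratio it was -0.27 (limma, adjusted p = 0.148). The T cell score overlapped little between non-maternal and maternal arrays. Fits with it as a covariate, here and below, therefore cannot tell score and rearing apart. Other marker genes differed too: 5 of 13 NK cell genes fell and 1 rose, 1 of 9 B cell and 1 of 12 monocyte genes fell, and 2 of 3 tested basophil and mast cell genes rose. The score of the 6 basophil and mast cell genes on the array ran from -0.13 to 0.76 on non-maternal and from -0.88 to 0.07 on maternal arrays. The part of any of these in the result was not tested, and in bulk samples fewer cells of a type and less RNA per cell cannot be told apart.

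RAB5A, the closely related early endosome protein, had values of 7.91, 7.82, 8.14 and 8.02 on surrogate-peer, 7.80, 8.10, 8.01 and 7.83 on peer and 7.81, 7.48, 7.45, 7.54 and 8.08 on maternal arrays. The 3 lowest values were all maternal, but maternal 1 and 5 lay inside the non-maternal range. The difference was 0.28 ± 0.11, opposite in sign to that of RAB5C, and did not pass (limma, adjusted p = 0.123). Its second probe set gave 0.16 ± 0.24. RAB20, a regulator of phagosome maturation, differed by 0.04 ± 0.18 and RAB31, which acts between the trans-Golgi network and endosomes, by -0.26 ± 0.26.

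Among late endosome and lysosome members, 0 of 5 passed and RAB34 and RAB24 came closest. RAB34, found on macropinosomes and phagosomes, had values of 6.70, 6.47, 6.70 and 6.42 on surrogate-peer, 6.37, 6.67, 6.42 and 6.65 on peer and 6.92, 6.83, 6.66, 6.88 and 6.86 on maternal arrays. Maternal 3 was the only maternal array inside the non-maternal range. The difference was -0.28 ± 0.08 (limma, adjusted p = 0.0532, from 0.0381 to 0.184 over the alternatives).

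RAB24, linked to autophagy, had values of 9.34, 9.69, 9.42 and 9.67 on surrogate-peer, 9.14, 9.46, 9.55 and 9.09 on peer and 9.22, 9.87, 9.74, 10.35 and 10.42 on maternal arrays. Maternal 4 and 5 stood highest, and maternal 1 was lower than 6 of the 8 non-maternal arrays. The difference was -0.50 ± 0.18 (limma, adjusted p = 0.0987), -0.61 ± 0.21 in peer and -0.39 ± 0.21 in surrogate-peer animals. All 3 probe sets of RAB24 were lower in non-maternal animals, by 0.18 to 0.50 in size. Without maternal 1 the adjusted p was 0.0112, and over all alternatives it ran from there to 0.315.

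The other 3 members of this group moved less. RAB7A, the master regulator of traffic to the lysosome, averaged 11.52 ± 0.11 in non-maternal (SD, n = 8) and 11.51 ± 0.04 in maternal animals (SD, n = 5). RAB29, which recruits the kinase LRRK2 to membranes, differed by 0.12 ± 0.07 (0.069 without maternal 5), and RAB9B, of the pair that returns mannose 6-phosphate receptors from late endosomes, by 0.15 ± 0.11. Neither passed.

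**Figure D2:**
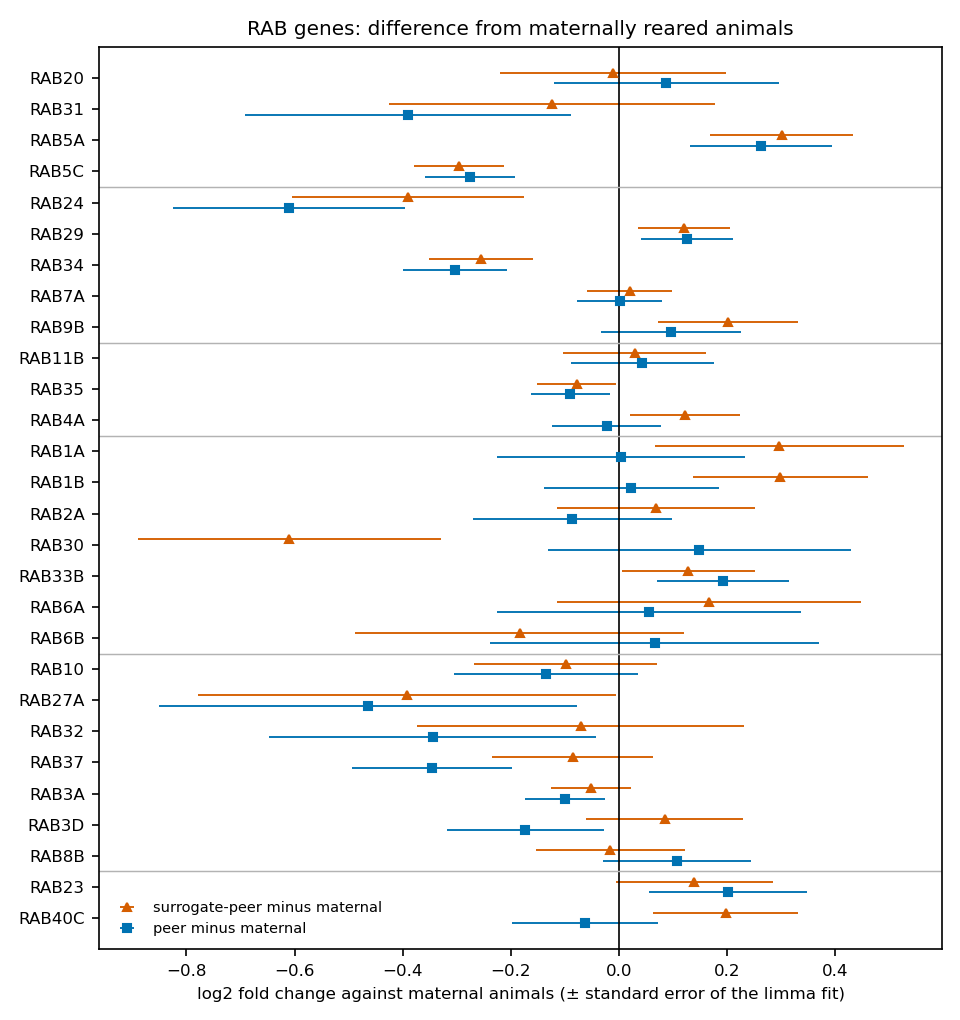
Points give the log2 fold change of each tested RAB gene in surrogate-peer (triangles) and peer animals (squares) against the same 5 maternal animals, with standard errors of the limma fit as bars; horizontal lines separate the sites of action in the same order as in the heat map. RAB5C, RAB34 and RAB24 lie below 0 in both groups, and RAB30 lies at -0.61 in surrogate-peer and 0.15 in peer animals; 0 genes passed in either comparison.

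Of the 3 recycling members 0 passed. RAB4A, of the fast route back to the cell surface, differed by 0.05 ± 0.09 and RAB11B, of the slow route, by 0.04 ± 0.11. RAB35, which acts at the plasma membrane and recycling endosomes, had the smallest spread of all 28 genes within groups, an SD of 0.08, and differed by -0.08 ± 0.06. A dimmer RAB35 probe set, MmugDNA.10270.1.S1_at, gave -0.25 ± 0.07 and just missed the threshold (limma, adjusted p = 0.0519).

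Of the 7 Golgi and ER members 0 passed at the brightest probe set, yet RAB2A passed at 2 others. RAB2A, which acts between the ER and the Golgi and on lysosomal traffic, averaged 10.38 ± 0.25 in non-maternal (SD, n = 8) and 10.39 ± 0.34 in maternal animals (SD, n = 5) at its brightest probe set, MmugDNA.33650.1.S1_at. The second brightest, MmugDNA.15881.1.S1_at, read 10.17, 10.58, 10.30 and 10.23 on surrogate-peer, 10.42, 10.33, 10.39 and 10.09 on peer and 10.08, 9.47, 9.80, 9.95 and 9.66 on maternal arrays. Every non-maternal value exceeded every maternal one there, by the narrow gap between peer 4 and maternal 1, and 1.89% of all tested probe sets were higher in non-maternal animals without overlap.

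This second RAB2A probe set rose by 0.52 ± 0.11 in non-maternal animals (limma, adjusted p = 0.0249). The dimmest of the 4 tested, MmugDNA.15882.1.S1_at, rose by 0.61 ± 0.15 (limma, adjusted p = 0.0364), and MmuSTS.3744.1.S1_at gave 0.09 ± 0.14. The second probe set lost its call without peer 1 (adjusted p = 0.0542), maternal 4 (0.0660) or maternal 5 (0.0643). The dimmest lost it without surrogate-peer 2, 3 or 4, peer 1 or 2 or maternal 2, 3, 4 or 5, with adjusted p from 0.0561 to 0.0890. With the T cell score as a covariate both missed the threshold, at 0.40 (limma, adjusted p = 0.233) and 0.65 (adjusted p = 0.188), which were the highest over their alternatives, the lowest being 0.00496 and 0.0143. Over all alternatives, single arrays left out included, the second probe set passed in 19 of 24 and the dimmest in 10 of 23. The probe sets of RAB2A correlated between 0.06 and 0.89 with each other, and whether they report different transcripts was not tested.

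RAB8B, a RAB of transport to the plasma membrane, showed the same split. At its brightest probe set it differed by 0.05 ± 0.12, while MmugDNA.3389.1.S1_at rose by 0.37 ± 0.09 (limma, adjusted p = 0.0357). This dimmer probe set read 10.49, 10.69, 10.53 and 10.56 on surrogate-peer, 10.66, 10.52, 10.62 and 10.46 on peer and 10.51, 10.17, 9.88, 10.24 and 10.20 on maternal arrays, so that only maternal 1 reached the non-maternal range. This call held without surrogate-peer 1 or maternal 1 and was lost without any other single array, with adjusted p between 0.0525 and 0.0844. It was also lost with the T cell score (0.39, adjusted p = 0.185) or the 3' to 5' ratio (0.37, adjusted p = 0.130) as a covariate, with arrays centred on the median (0.31, adjusted p = 0.0566) and after quantile normalization (0.32, adjusted p = 0.0503), and over all alternatives adjusted p ran from 0.00498 to 0.185. The 6 probe sets of RAB8B spanned -0.19 to 0.63 and correlated between -0.90 and 0.81.

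A probe set that passed beside others that did not was seen for RAB5C, RAB2A and RAB8B. Of the 15 RAB genes with more than 1 tested probe set 6 had log2 fold changes of both signs, some well within their standard errors, such as those of RAB6A. RAB2A and RAB8B passed only at a probe set other than the brightest, and were singled out after their values were seen. The brightest probe sets of RAB1A, RAB11B and RAB27A carry the suffix _s_at, which Affymetrix gives to probe sets that can bind more than 1 transcript.

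**Figure D3:**
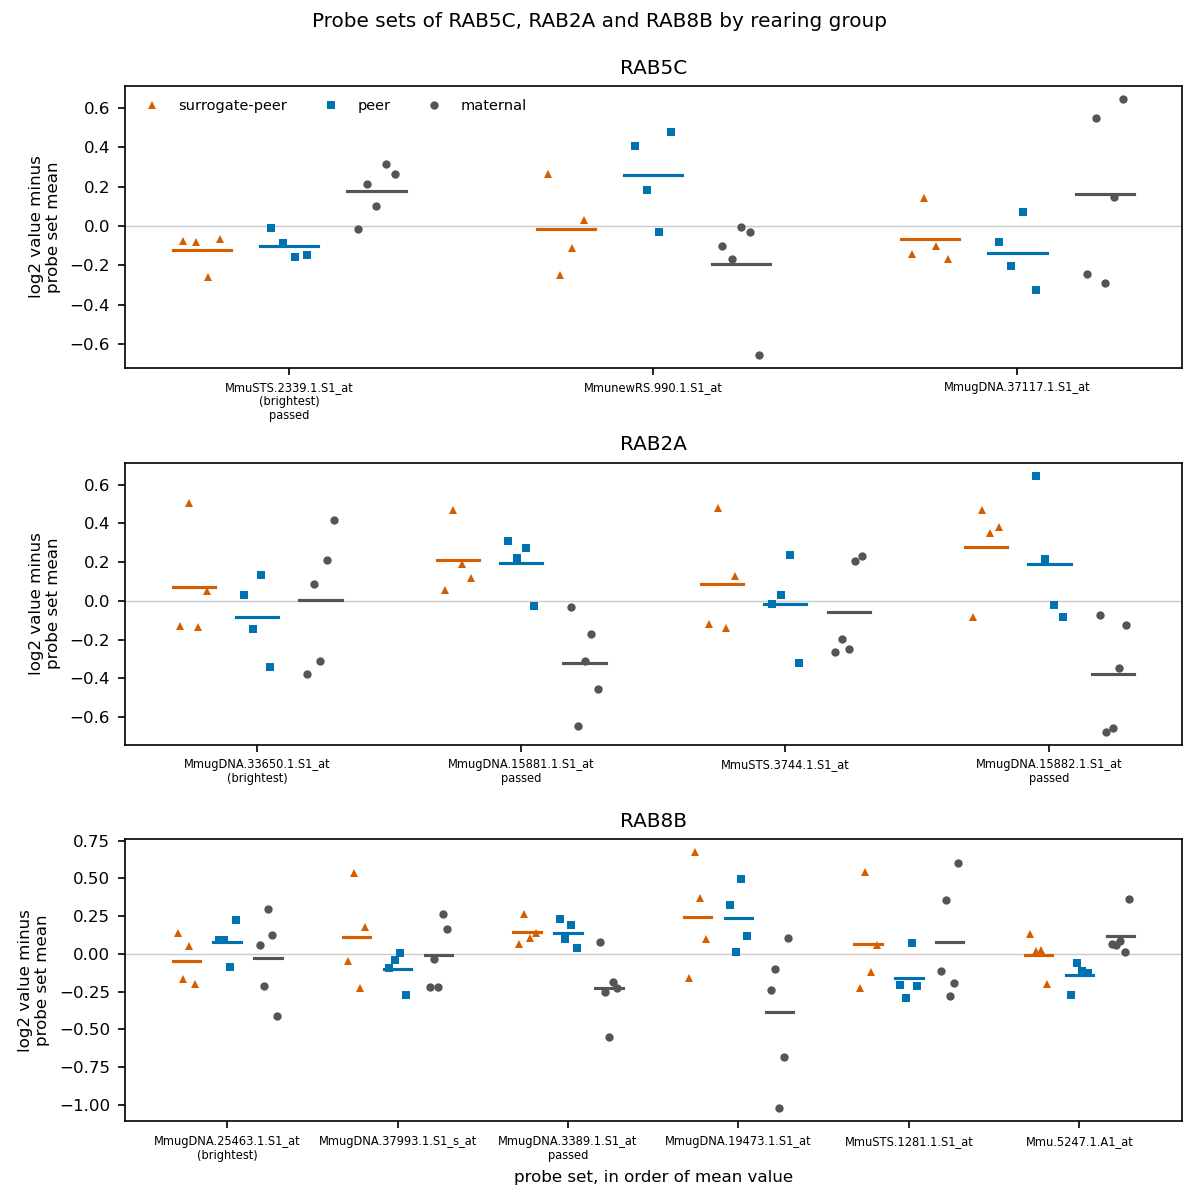
Each panel gives all tested probe sets of RAB5C, RAB2A or RAB8B from the brightest to the dimmest, as the log2 value minus the probe set's mean over the 13 arrays; triangles are surrogate-peer, squares peer and circles maternal animals, and short lines are group means. The word passed marks an adjusted p below 0.05 in non-maternal minus maternal; within each gene probe sets with a difference stand beside others with none or with the opposite sign.

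The remaining Golgi genes did not pass. RAB1A and RAB1B, which drive transport from the ER to the Golgi, differed by 0.15 ± 0.20 and 0.16 ± 0.14, and RAB33B, which binds the autophagy protein ATG16L1, by 0.16 ± 0.10. RAB1B was 0.30 ± 0.16 higher in surrogate-peer than in maternal animals (limma, adjusted p = 0.315), with 7.61 on surrogate-peer 2, and 0.14 without that array. RAB6A and RAB6B, of retrograde traffic through the Golgi, differed by 0.11 ± 0.24 and -0.06 ± 0.26.

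RAB30, a Golgi RAB, had the largest difference of any member between single groups. Its values were 6.17, 5.95, 7.11 and 6.79 on surrogate-peer, 7.23, 7.57, 7.01 and 7.25 on peer and 7.42, 7.77, 6.66, 6.52 and 7.21 on maternal arrays. Surrogate-peer 1 and 2 stood below all other arrays, and the other two surrogate-peer values lay inside the maternal range. The surrogate-peer minus peer difference of -0.76 ± 0.30 (limma, unadjusted p = 0.0237) did not pass after adjustment, nor did the surrogate-peer minus maternal difference of -0.61 ± 0.28 (limma, adjusted p = 0.244).

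RAB30 moved with the B cell marker score over the 13 arrays (Pearson r = 0.90, Spearman rho = 0.88, permutation p = 5e-05 and 1.6e-04, adjusted p = 0.00639 and 0.0263). The second RAB30 probe set had r = 0.84. With group means removed r was 0.93, and over the 8 non-maternal arrays 0.98. Without surrogate-peer 1 and 2, the arrays farthest from the median score, r was 0.74 and no longer passed (permutation, adjusted p = 0.110), whereas it passed without any single array. Without maternal 2 and 5 r was 0.86 and did not pass either (permutation, adjusted p = 0.0829). All 9 B cell genes were lower in surrogate-peer than in peer animals, and the score ran from -1.15 to -0.18, from -0.29 to 0.54 and from 0.03 to 0.99 in surrogate-peer, peer and maternal animals. With that score as a covariate, chosen after seeing the data, the RAB30 difference was 0.09 between surrogate-peer and peer animals. Between surrogate-peer and maternal animals it was 0.49, and neither passed the threshold. The scores of surrogate-peer and maternal animals did not overlap, so there the fit cannot tell score and rearing apart.

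**Figure D4:**
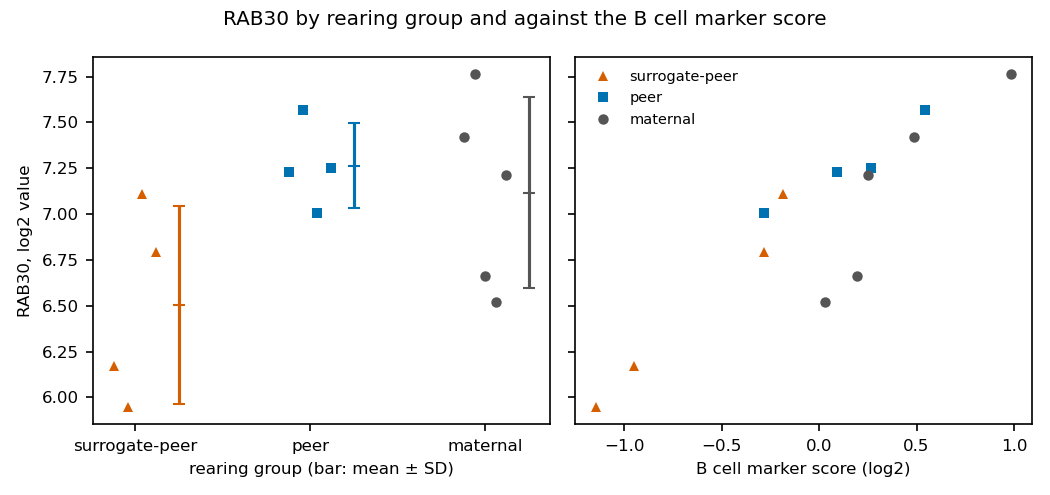
The left panel gives the log2 value of RAB30 on each array by rearing group with the mean and SD, and the right panel the same values against the B cell marker score. Surrogate-peer arrays 1 and 2 are lowest on both axes, and the 13 points follow 1 rising course with r = 0.90.

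Of the 7 members of exocytosis and secretory granules 0 passed in non-maternal minus maternal. Their median log2 fold change was -0.12, and 6 of 7 were negative, beside 14 of 28 for all tested RAB genes. Some of these members varied together over the arrays, so their signs are not independent. RAB27A, required for the release of lytic granules by cytotoxic lymphocytes, had the widest spread within groups of all 28 genes, an SD of 0.64. It averaged 9.86 ± 0.46 in non-maternal (SD, n = 8) and 10.29 ± 0.82 in maternal animals (SD, n = 5), a difference of -0.43 ± 0.33. A second RAB27A probe set gave 0.26. RAB32, of lysosome-related organelles, differed by -0.21 ± 0.26, RAB10 by -0.12 ± 0.14, RAB3A by -0.08 ± 0.06 and RAB3D, of regulated secretion, by -0.04 ± 0.12.

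RAB37, found on secretory granules of mast cells, was the only one of the 28 tested genes whose surrogate-peer and peer values did not overlap. It read 9.42, 9.58, 9.30 and 9.45 on surrogate-peer and 9.23, 9.13, 9.07 and 9.28 on peer arrays, beside 9.36, 9.18, 10.05, 9.67 and 9.35 on maternal ones. Of all named genes 0.891% were higher in surrogate-peer animals without overlap. The difference of 0.26 ± 0.16 did not pass (limma, unadjusted p = 0.121).

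The remaining members were RAB23, an inhibitor of Hedgehog signalling, and RAB40C, a subunit of ubiquitin ligases. They differed by 0.17 ± 0.12 and 0.07 ± 0.11 in non-maternal animals. RAB40C was 0.26 ± 0.14 higher in surrogate-peer than in peer animals, with 8.11 on surrogate-peer 2 and a difference of 0.13 without that array, and RAB3D was higher by 0.26 ± 0.15. Neither passed.

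The comparisons of single groups gave 0 calls among the 28 RAB genes. In peer minus maternal the smallest adjusted p was 0.0834, where 0.197% of named genes passed, and 4 RAB genes had an unadjusted p under 0.05, beside 25.8% of named genes. In surrogate-peer minus maternal it was 0.106, where 0.0% of named genes passed, with 4 RAB genes at an unadjusted p under 0.05 beside 20.1% of named genes, and RAB5C the only one of the 28 tested genes without overlap, where 2.82% of named genes were lower without overlap. In surrogate-peer minus peer 0.0% of named genes passed and only RAB30 had an unadjusted p under 0.05, beside 1.87% of named genes. In the moderated F test of any group difference 0.0311% of named genes passed and 3 RAB genes had an unadjusted p under 0.05, beside 20% of all tested probe sets. The first pair of comparisons share the maternal animals.

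Values of several members varied widely between animals of 1 group, and for some they followed the monocyte marker score, the mean over 12 genes. This relation was looked at after marker scores and RAB values had been seen. Pearson correlations were computed for all 26352 tested probe sets with 5 marker scores, and the permutation p-values were adjusted over all 131760 relations. Of the 28 RAB genes at their brightest probe sets 8 rose with the monocyte score, 28.6%, beside 5.51% of all tested probe sets. The latter share covers probe sets of any rank. No share of named genes at their brightest probe sets was computed for any marker score. The 8 genes were RAB27A (r = 0.93), RAB2A (0.87), RAB10 (0.86), RAB3D (0.82), RAB32 (0.81), RAB31 (0.80), RAB1A (0.79) and RAB6A (0.76), with adjusted p from 0.00335 to 0.0372. Spearman's rho was 0.82 to 0.94, and its adjusted p missed the threshold for RAB31 (0.0504) and RAB6A (0.0547).

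RAB27A shows the size of the relation. Its values were 9.48, 10.61, 9.43 and 10.07 on surrogate-peer arrays, 9.85, 9.94, 10.25 and 9.26 on peer arrays, and 9.12, 10.68, 9.82, 10.65 and 11.18 on maternal arrays. The monocyte scores in the same order were -0.18, 0.56, -0.45 and 0.12, then -0.25, -0.26, 0.18 and -0.52, then -0.51, 0.75, -0.38, 0.15 and 0.81. Each group spanned high and low scores, and the score itself overlapped widely between groups. Within groups the correlations stayed high: with group means removed r was 0.77 to 0.93 for these 8 genes, and over the 8 non-maternal arrays 0.71 to 0.94.

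The number of RAB genes that pass rests on few arrays. Without maternal 2 and 5, the arrays with the 2 highest scores, 1 of 28 passed, although the r of the 8 genes was still 0.69 to 0.95. With group means removed and arrays permuted within groups 1 passed. Without maternal 5 the count was 3, without maternal 1 or peer 4 it was 4, and without peer 3 it was 5. The r of RAB24 was 0.73 and did not pass (permutation, adjusted p = 0.0630).

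RAB8B ran the other way at its brightest probe set (r = -0.85, Spearman rho = -0.69, permutation adjusted p = 0.0135 and 0.147), as 7.26% of all tested probe sets did. Its other probe sets had r from -0.15 to 0.88, so the sign depends on the probe set. The highest, MmuSTS.1281.1.S1_at, passed in the positive direction (permutation, adjusted p = 0.0135). RAB5C did not pass at its brightest probe set (r = 0.55) but did at MmugDNA.37117.1.S1_at (r = 0.92, permutation adjusted p = 0.00434). For RAB27A the second probe set had r = 0.62 and did not pass. Of the 8 genes, RAB2A had r of 0.87 at its brightest probe set but -0.35 at the second brightest and -0.17 at the dimmest tested. Both of these negative probe sets were called higher in non-maternal animals. The remaining RAB2A probe set had 0.64, and none of its other probe sets passed. Those of RAB1A had 0.75 and 0.76, those of RAB31 0.85 and 0.67, and those of RAB6A 0.53 and 0.80.

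**Figure D5:**
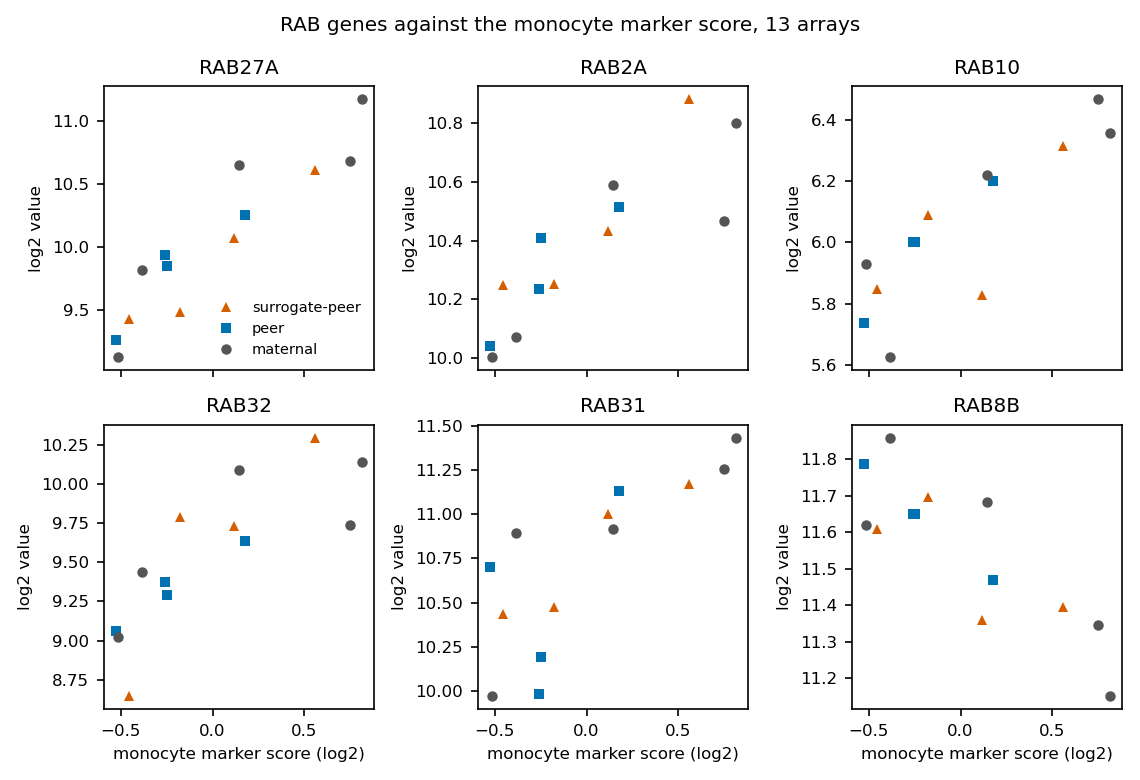
Log2 values of 5 of the 8 RAB genes that rose with the monocyte marker score, and of RAB8B, which fell, are plotted against that score for the 13 arrays; triangles are surrogate-peer, squares peer and circles maternal animals. Arrays of all 3 groups lie along the same course in each panel, with r from 0.80 to 0.93 for the rising genes and -0.85 for RAB8B.

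With the T cell score 3 RAB genes at their brightest probe sets had negative relations that passed, 10.7%, beside 4.19% of all tested probe sets. They were RAB5C (r = -0.85), RAB24 (-0.82) and RAB27A (-0.80). Spearman's adjusted p was 0.0710, 0.0446 and 0.126 for these. With group means removed r was -0.59 for RAB5C, -0.71 for RAB24 and -0.89 for RAB27A, and over the 8 non-maternal arrays it was -0.39, -0.75 and -0.89 in the same order. The other RAB5C probe sets had r = 0.73 at MmunewRS.990.1.S1_at and -0.82 at MmugDNA.37117.1.S1_at, those of RAB24 -0.69 and -0.67, and that of RAB27A -0.16. No RAB gene rose with it, where 11.0% of all tested probe sets did. With the NK cell and platelet scores 0 passed at the brightest probe sets. Of all tested probe sets 0.755% and 0.884% passed in the positive and 0.527% and 0.175% in the negative direction. A dimmer RAB8B probe set, MmugDNA.19473.1.S1_at, passed with the NK cell score (r = -0.74, permutation adjusted p = 0.0388). A dimmer RAB35 probe set, MmugDNA.10270.1.S1_at, passed with the T cell score (r = -0.75, permutation adjusted p = 0.0427). RAB30 was the only member to pass with the B cell score, as 0.793% of tested probe sets did in that direction.

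Correlations between RAB genes ran widely in both directions. With group means removed, the 378 pairs of the 28 genes had a median r of 0.06, and 33 pairs exceeded 0.7. The share of such pairs among other genes was not computed, so this count does not set RAB genes apart. The highest was RAB27A with RAB2A, at 0.95, and the lowest RAB10 with RAB11B, at -0.88. These correlations describe the same 13 arrays, which differed in their marker scores.

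The proteins that load, unload and follow RAB GTPases were set beside them as 4 lists with 121 tested genes. In non-maternal minus maternal 7 rose and 1 fell, 6.61%, which is near the 7.98% of all named genes, and their median was 0.07. In peer minus maternal 1 of 121 passed, 0.826%, beside 0.197% of named genes. In the other comparisons of single groups 0 passed.

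Of the 8 genes of prenylation and GDI, 2 rose. Of all named genes 6.3% rose past the threshold, which is the share for this and the next lists. CHM, the escort protein that presents new RAB proteins for prenylation, averaged 9.02 ± 0.13 in non-maternal (SD, n = 8) and 8.50 ± 0.30 in maternal animals (SD, n = 5) and rose by 0.52 ± 0.12 (limma, adjusted p = 0.0285). RABGGTB, the catalytic subunit of the transferase, averaged 9.08 ± 0.20 in non-maternal and 8.64 ± 0.24 in maternal animals and rose by 0.45 ± 0.12 (limma, adjusted p = 0.0444). The other RABGGTB probe set gave 0.37.

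Of 39 exchange factors 2 rose, both with DENN domains. DENND4C, an exchange factor for RAB10, rose by 0.56 ± 0.14 (limma, adjusted p = 0.0383) and AVL9 by 0.33 ± 0.07 (limma, adjusted p = 0.0278), whose other 3 probe sets ran from 0.03 to 0.66. Of the 30 GAPs 0 passed, and 14 were higher and 16 lower.

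Of 44 effectors 3 rose and 1 fell. RAB11FIP2, which links RAB11 to recycling vesicles, rose by 0.79 ± 0.14 (limma, adjusted p = 0.0203). All 8 non-maternal values lay above the 5 maternal ones, as for 1.58% of named genes. RAB11FIP2 was the 1 gene of the 4 lists that passed in peer minus maternal (0.86, limma, adjusted p = 0.0486). PIK3R4, the VPS15 subunit of the class III PI3-kinase complex bound by RAB5, rose by 0.57 ± 0.12, and VPS26A, of the retromer coat recruited by RAB7, by 0.27 ± 0.07. EHBP1L1, a RAB8 and RAB10 effector, fell by 0.48 ± 0.12 (limma, adjusted p = 0.0346). All 8 genes kept their sign under the alternatives run, but their calls rested on few arrays.

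Leaving out 1 of the 13 arrays kept RAB11FIP2 past the threshold in 11 cases, all but maternal 4 and 5, and PIK3R4 in 10, all but peer 1 and maternal 4 and 5. AVL9 was lost without surrogate-peer 3, peer 1 or maternal 2, 4 or 5, and CHM without surrogate-peer 3, peer 1 or maternal 2, 3, 4 or 5. VPS26A stayed past it only without surrogate-peer 1 or 4, peer 4 or maternal 1, and DENND4C only without surrogate-peer 1, peer 3 or maternal 1. EHBP1L1 stayed past it only without surrogate-peer 2 or maternal 1 or 2, and RABGGTB only without surrogate-peer 2 or maternal 1, with adjusted p of up to 0.123. With the 3' to 5' ratio as a covariate 4 of the 8 passed, CHM, DENND4C, PIK3R4 and VPS26A. The other 4 missed the threshold with differences of 0.40 for AVL9, -0.55 for EHBP1L1, 0.44 for RABGGTB and 0.66 for RAB11FIP2. With the T cell score as a covariate, chosen after seeing the data, 0 passed, with adjusted p from 0.182 to 0.609. As for RAB5C, that score overlapped little between the groups, so the fit cannot tell score and rearing apart.

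The 11 RAB genes below the cutoff were RAB3B, RAB17, RAB25, RAB26, RAB27B, RAB33A, RAB38, RAB39A, RAB40B, RAB41 and RAB42, with means from 3.59 to 5.87. RAB17 and RAB25 are known from epithelia, RAB3B from neurons and RAB38 from pigment cells. They were not tested, and their signal here does not separate a low level from none.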

How the data were processed

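The deposited log2 values, 1 for each probe set and array, came from RMA run by the authors, per the submitters' processing notes; the sources used here do not give its version or settings, or whether all 13 arrays were normalized together. Arrays have no read depth, so their number limits the precision. After leaving out 158 control probe sets, 26352 of 52707 with means above 6.04 were tested in 1 limma fit (limma 3.58.1, R 4.3.3; lmFit, eBayes) over 13 arrays, two-sided, with Benjamini-Hochberg adjustment and a threshold of 0.05. Levels of different probe sets were not compared. Each marker score is a mean of log2 deviations; relations used 100000 permutations, and 20000 where arrays were left out, group means removed or arrays rescaled (NumPy 2.4.6). Scripts were tested on simulated data.

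The members, lists, roles and tests were chosen with earlier results of these data known. In each comparison, members past the threshold were named, and otherwise up to 3 per direction with the smallest p; per site of action, the smallest F-test p; per list, up to 4 called genes. Genes named for their marker relations or spread, and all others outside this rule, were chosen after their values were seen. Gene names come from the platform annotation; the gene IDs of 2 RAB probe sets are not in the RefSeq table. Alternatives were other filters and scalings, array weights, a variance trend, covariates, the mean of probe sets and leaving out arrays.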

Additional observations from a re-analysis of the deposited data

Results flagged for a closer look

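Dixon's test within a rearing group marked 3 of 93 sets of group values of RAB genes and probe sets, where chance marks about 5%. RAB5C on surrogate-peer 3 was 9.839, below the other 3 surrogate-peer arrays. RAB4A on peer 1 was 10.223, above the other 3 peer arrays. RAB1B on maternal 1 was 6.67, below the other 4 maternal arrays.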

How the results depend on the processing

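The number of RAB genes past the threshold in non-maternal minus maternal was 1 and ran from 0 to 2 with 1 array left out. It was 2 with arrays centred on the median, with a variance trend and robust prior or with the monocyte score as a covariate, and 0 with the 3' to 5' ratio as a covariate or without maternal 2 and 5. Peer minus maternal gave 0, with 1 under the title number as a covariate and 0 to 2 with 1 array left out; surrogate-peer minus maternal gave 0 to 1, the F test 0 to 2 and surrogate-peer minus peer 0 in every leave-one-out fit. In peer and surrogate-peer minus maternal and in the F test, only leaving out maternal 1 gave calls among these. Of the 25 fold changes of named genes, 18 kept their sign under all alternatives run. Signs turned for RAB33B in non-maternal minus maternal (-0.041 with the 3' to 5' ratio), RAB9B in surrogate-peer minus maternal (-0.045 with the title number) and RAB4A in non-maternal minus maternal (-0.013 centred, -0.0032 by quantiles). In surrogate-peer minus peer they turned for RAB8B (0.090 with the title number, 0.014 with the ratio, 0.076 as the mean of its probe sets) and RAB6B (0.39 with the title number, and -0.45 to 0.0072 with 1 array left out, positive only without surrogate-peer 3). RAB30 turned to 0.49 against maternal and 0.088 against peer animals with the B cell score. The causes were not tested. The title number is the number that ends each sample title, which the labels do not explain. It ran from 9 to 32 on surrogate-peer, from 35 to 47 on peer and from 31 to 55 on maternal arrays. It separated surrogate-peer from peer arrays completely, so as a covariate it cannot be told apart from that comparison. Centring moved the median of all fold changes by -0.06. The number of RAB genes related to the monocyte score, 8, ran from 3 to 8 with 1 array left out; it was 1 with group means removed and arrays permuted within groups, 1 without maternal 2 and 5, and 3 without surrogate-peer 1 and 2. No paired analysis was possible because the labels give no replicate numbers shared between groups.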
